A study of Mus musculus with 8 samples.

Results

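The clustered protocadherins are the genes whose symbols start with *Pcdha*, *Pcdhb* or *Pcdhg*. Selecting the protein-coding genes with such a symbol gave 57 members of the 48709 genes listed for each library, 14 in the alpha, 22 in the beta and 21 in the gamma cluster. Their expression was compared between the control and dcKO_Nex-Cre cortex of mice at postnatal day 1 (P1), in RNA isolated from whole tissue, with 4 libraries per group. The control animals were heterozygous for the floxed alleles (BAF155fl/+, BAF170fl/+) and Cre negative. The dcKO_Nex-Cre animals combined the floxed BAF155 and BAF170 alleles with Nex-Cre, and both groups were on a C57BL6/J background. BAF155 and BAF170, encoded by *Smarcc1* and *Smarcc2*, are scaffolding subunits of the BAF chromatin remodelling complex. Nex-Cre is active in postmitotic projection neurons of the cortex, so interneurons, glia and vessel cells of the dcKO_Nex-Cre tissue keep both genes. The sample titles name the mutants only as such, and the Cre line was taken from the study's text. Because the control animals carried no Cre, the presence of Cre and the loss of BAF155 and BAF170 cannot be told apart, and in whole tissue fewer cells of a type and less RNA per cell cannot be told apart either.

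Clustered protocadherins are cell surface proteins of the cadherin superfamily that bind the same isoform on a neighbouring cell. In the alpha and gamma clusters, each member has its own promoter and variable exon, which is spliced to constant exons shared by the whole cluster, whereas a beta gene is a single coding exon with no constant part. A neuron uses a small, largely random choice of alternate promoters, helped by CTCF and cohesin looping. This combination gives the cell an identity used in dendrite self-avoidance. The last promoters of the alpha and gamma clusters give the C-type isoforms (*Pcdhac1*, *Pcdhac2*, *Pcdhgc3*, *Pcdhgc4* and *Pcdhgc5*), which are less subject to this random choice.

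All members lie in tandem on the plus strand of chromosome 18 of GRCm38 (mm10), the alpha genes between 36930184 and 37187661, the beta genes between 37264938 and 37524479, and the gamma genes between 37661793 and 37841873. The 14 alpha genes share 2860 bases of annotated exon and the 21 gamma genes share 2116 bases. How the authors' counting treated reads in these constant exons is not given in the sources used here. The counts of overlapped genes bear on it. *Pcdhga10*, whose exons are overlapped in full by other genes when strand is ignored, had 0 counts in all 8 libraries. Were its reads counted, this would allow at most about 3 counts or 0.0852 to 0.167 CPM per library (CPM, library-size scaled counts). If reads in overlapped exons were left out of the counting, the 0 counts set no limit on its expression. The 3 annotated readthrough genes that span the locus (*Gm42416*, *Gm37013* and *Gm37388*) also had 0 counts in every library. The value of a member is therefore read here as that of its own exon, and reads of near-identical members may have been lost or split.

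The libraries held 17958641 to 35191912 counts in total, and between 8717 and 25649 of these fell on the members. *Smarcc2* was at 456, 486, 478 and 429 CPM in the control libraries and at 241, 292, 241 and 278 CPM in the dcKO_Nex-Cre libraries, and *Smarcc1* was at 141, 146, 164 and 139 CPM against 93.0, 122, 100.2 and 93.4 CPM. Both targeted genes were thus lower in every dcKO_Nex-Cre library, with log2 differences of -0.81 ± 0.089 (SE, adjusted p = 0.00267) and -0.53 ± 0.099 (SE, adjusted p = 0.0348) in edgeR's quasi-likelihood test. *Smarcc1* was not called in 8 of 15 alternative fits, where its log2 fold change was -0.56 to -0.46. The mitochondrial share of the counts was 2.33% to 6.87%, and it was highest in control replicate 2 (6.87%) and dcKO_Nex-Cre replicate 4 (6.15%). By the lane tag in the file names, tag 2 held the 4 control libraries with replicates 1 and 2 of the mutant, and tag 8 held mutant replicates 3 and 4 alone. The labels do not say whether the libraries came from separate animals, so the p-values measure the spread between these libraries only.

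In the P1 cortex nearly the whole repertoire was measured. Of the 57 members, 53 passed edgeR's filter on low counts and were tested, 12 of the alpha, 21 of the beta and 20 of the gamma cluster. The other 4 were at or near 0 in both groups: *Pcdha4* had 0 to 3, *Pcdha11* 0 to 2 and *Pcdhb1* 1 to 6 counts per library, beside *Pcdhga10* at 0. For *Pcdha4* only 404 bases, and for *Pcdha11* 1268 bases, of exon overlap no other gene when strand is ignored, whereas *Pcdhb1* has 2588 such bases. To compare levels between genes, CPM were divided by the kilobases of exon that no other annotated gene overlaps on either strand. Per kilobase, the median control level was 2.46 CPM over the tested alpha, 1.57 CPM over the beta and 3.98 CPM over the gamma genes. *Pcdhgc3* stood first at 38.2 CPM per kilobase in the control and 41.5 CPM per kilobase in the dcKO_Nex-Cre cortex, and alone took 12.7% of the members' summed CPM in the control. It was followed by *Pcdhgc4* (12.5 CPM per kilobase in the control), *Pcdhga11* (11.7), *Pcdhac2* (7.91) and *Pcdhga3* (7.43). The 2 lowest tested members were *Pcdha8* (0.145) and *Pcdha1* (0.252). Where only overlaps on the same strand were discounted, *Pcdhgc3* remained first at 20.6 CPM per kilobase, while *Pcdhga11* came to 5.55 CPM per kilobase.

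**Figure D1:**
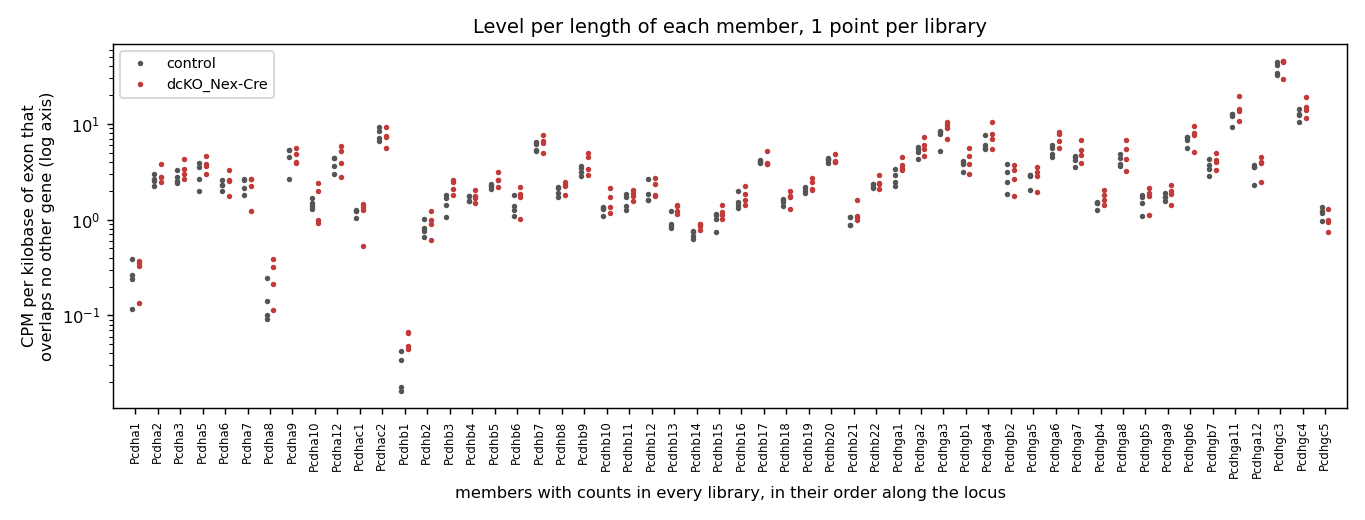
Level of each member with counts in every library, in CPM per kilobase of exon that overlaps no other gene, on a log axis, with 1 point per library (grey, 4 control; red, 4 dcKO_Nex-Cre) and the members in their order along the locus. *Pcdhgc3* and *Pcdhgc4* lie highest, *Pcdhb1*, which was not tested, lies lowest, and the points of the groups are intermingled for most members.

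The question asked of these data was whether the members, taken by cluster, differed between the control and dcKO_Nex-Cre cortex. No member passed the test in either direction. Over all 16287 genes tested, 0.375% were called higher and 0.51% lower at an adjusted p under 0.05 (edgeR's quasi-likelihood test), against 0 of 53 members in each direction, and at so low a background 0 of 53 does not set the members apart. DESeq2's Wald test also called 0 members, with 1.31% of genes higher and 1.66% lower. At an unadjusted p under 0.05, 5 of 53 members (9.43%) were higher and 0 lower, beside 6.59% and 7.05% of all genes. Most members had a small positive log2 fold change. It was above 0 for 49 of 53 members (9 of 12 alpha, 21 of 21 beta and 19 of 20 gamma genes), compared with 50.9% of all genes tested. The median log2 fold change was 0.18 for the alpha, 0.22 for the beta and 0.20 for the gamma genes, compared with 0.0043 for all genes. The median standard error of a single member was 0.17, about as large as the differences themselves, and members of 1 locus measured in the same libraries do not vary independently.

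**Figure D2:**
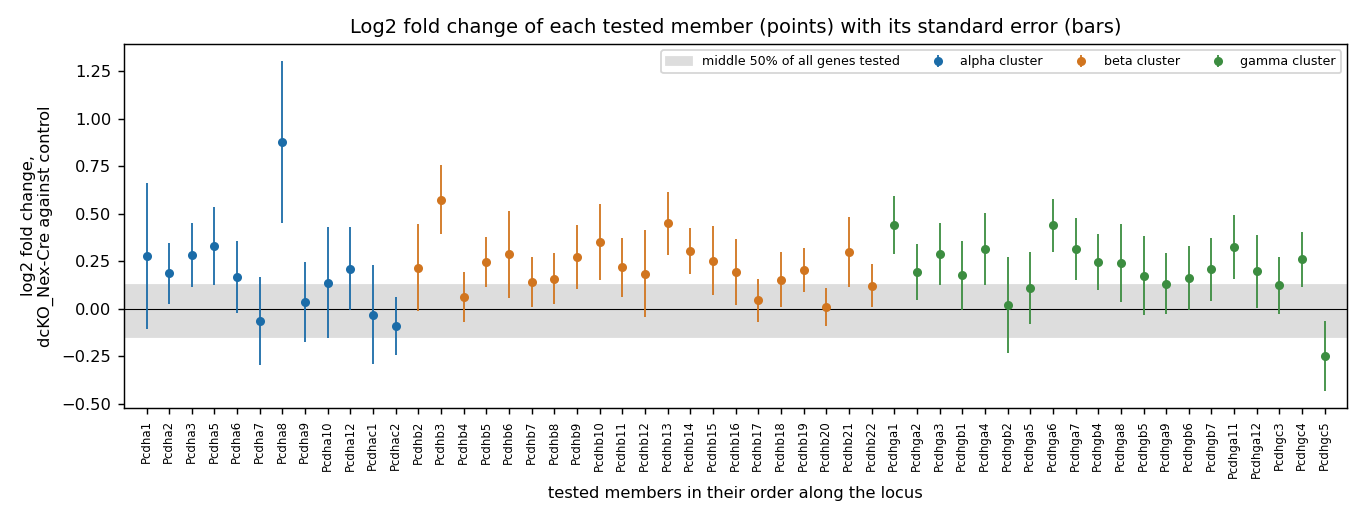
Log2 fold change between the dcKO_Nex-Cre and control cortex (vertical axis) of the 53 tested members in their order along the locus, with bars of 1 standard error, and the middle 50% of all genes tested as a grey band. Points are above 0 for 49 members, whereas *Pcdha7*, *Pcdhac1*, *Pcdhac2* and *Pcdhgc5* are below, and none passed the test.

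The members of each cluster were also summed. In the alpha cluster the difference between the group means was smaller than the SD of either group, while in the beta and gamma clusters it was larger than the SD of the control libraries and close to or below that of the dcKO_Nex-Cre libraries. The alpha cluster summed to 90.9, 64.8, 80.1 and 84.3 CPM in the control libraries and to 106.7, 83.0, 87.7 and 62.4 CPM in the dcKO_Nex-Cre libraries. The groups overlapped, with means of 80.01 ± 11.1 CPM and 84.97 ± 18.2 CPM (SD, n = 4), and the dcKO_Nex-Cre mean was 106% of the control. The alpha sum was 99.9% of the control without control replicate 2 and 97.1% without dcKO_Nex-Cre replicate 1, so its direction rested on single libraries.

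The beta cluster summed to 178.3, 170.4, 177.6 and 161.6 CPM in the control and to 226, 197, 186 and 172 CPM in the dcKO_Nex-Cre libraries. Here 3 of the 4 dcKO_Nex-Cre libraries lay above every control, and the mean was 114% of the control (171.97 ± 7.76 CPM against 195 ± 23.1 CPM, SD, n = 4). The gamma cluster summed to 315, 242, 324 and 307 CPM in the control and to 410.3, 349, 359 and 256 CPM in the dcKO_Nex-Cre libraries. Again 3 of 4 dcKO_Nex-Cre libraries were above every control, and the mean was 116% of the control (297 ± 37.1 CPM against 344 ± 64.1 CPM, SD, n = 4). Replicate 4 was the lowest dcKO_Nex-Cre library in all 3 clusters. The beta sums were the most even among the control libraries. No test was made on sums over the members.

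**Figure D3:**
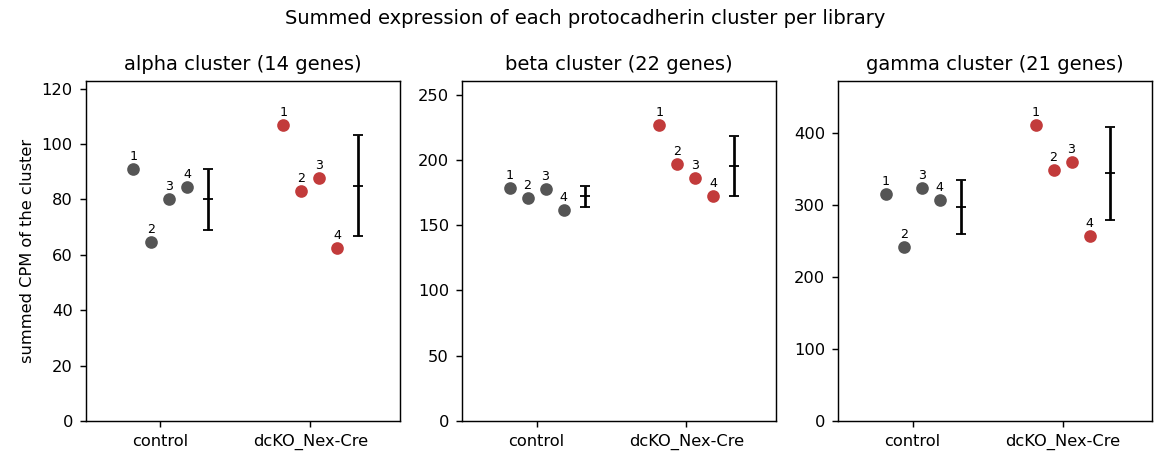
Summed CPM (vertical axis, from 0) of the alpha, beta and gamma clusters in each library, with the replicate number beside each point and the group mean with its SD in black. In the beta and gamma clusters dcKO_Nex-Cre replicates 1 to 3 lie above every control library and replicate 4 lies within the control range, and the alpha groups overlap.

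The members varied together from library to library, and the same libraries were low or high in many of them. Control replicate 2 was the lowest control library for 20 of 20 gamma and 9 of 12 alpha genes, but only for 4 of 21 beta genes. Replicate 4 was the lowest dcKO_Nex-Cre library for 42 of 53 members (11 of 12 alpha, 14 of 21 beta and 17 of 20 gamma), and replicate 1 was the highest for 39 of 53. As log2 ratios to the control mean, the median over the members was 0.080, -0.18, 0.065 and 0.0051 in the control libraries and 0.48, 0.21, 0.21 and -0.12 in the dcKO_Nex-Cre libraries. The median over all genes stayed between -0.0080 and 0.0013 in every library. Control replicate 2 and dcKO_Nex-Cre replicate 4, the 2 libraries with negative medians, were those with the highest mitochondrial shares and the lowest total counts, while dcKO_Nex-Cre replicate 1 had the lowest share (2.33%) and the highest total. The part of RNA quality or depth in these differences was not tested.

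Without dcKO_Nex-Cre replicate 4, 2 members were called, *Pcdhb3* and *Pcdhga6*, both higher, and 21 had an unadjusted p under 0.05. In that fit 3.98% of all genes were called higher and 14.3% had such a p in this direction. Without control replicate 2 and dcKO_Nex-Cre replicate 4, a choice made after the data were seen, *Pcdha8*, *Pcdhb3* and *Pcdhga6* were called higher, with 5.49% of all genes, and 18 members had an unadjusted p under 0.05 in this direction, with 14.9% of all genes. The called members, 3.77% and 5.66% of those tested, were thus close to the share of all genes in both fits. The members with such an unadjusted p, 39.6% and 34.0% of those tested, were above it in both. Both fits leave out dcKO_Nex-Cre replicate 4, the lowest dcKO_Nex-Cre library for 42 of 53 members, and members of 1 locus do not vary independently. Within lane tag 2, which holds 4 control and 2 dcKO_Nex-Cre libraries, 0 members were called, beside 0.834% of all genes called higher, and 17 (32.1%) had an unadjusted p under 0.05 in the higher direction, beside 11.7% of all genes. The cluster medians there were 0.35, 0.35 and 0.36 for the alpha, beta and gamma genes. Without dcKO_Nex-Cre replicate 1 they were 0.023, 0.13 and 0.11, and 42 of 53 members were above 0, beside 51.2% of all genes.

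**Figure D4:**
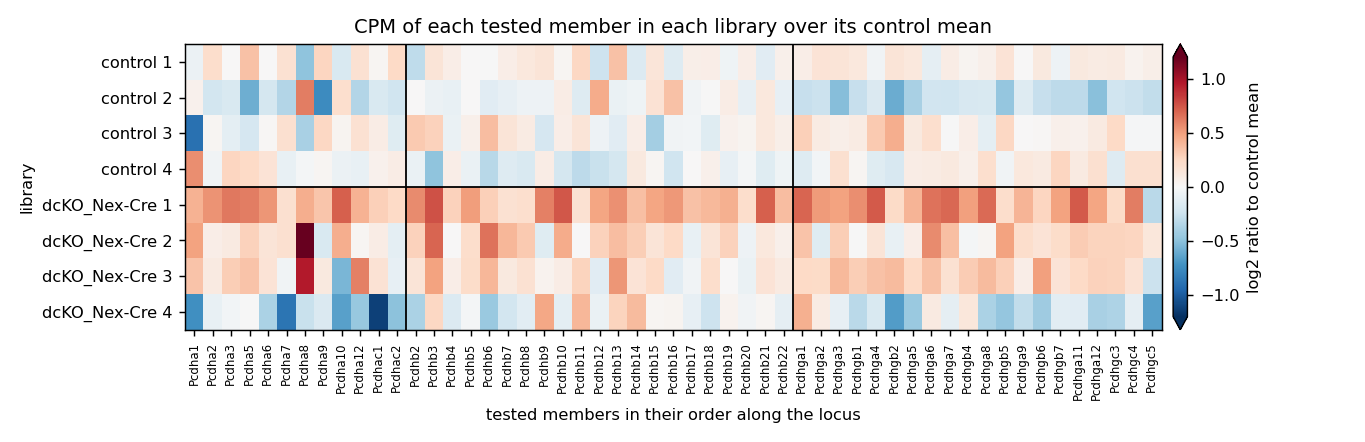
Log2 ratio of the CPM of each tested member (columns, in their order along the locus, with lines between the alpha, beta and gamma clusters) in each of the 8 libraries (rows) to its mean in the control. The row of dcKO_Nex-Cre replicate 1 is high in nearly every member (median 0.48), while the rows of control replicate 2 (median -0.18) and dcKO_Nex-Cre replicate 4 (median -0.12) are low, most evenly so in the gamma cluster for control replicate 2.

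**Figure D5:**
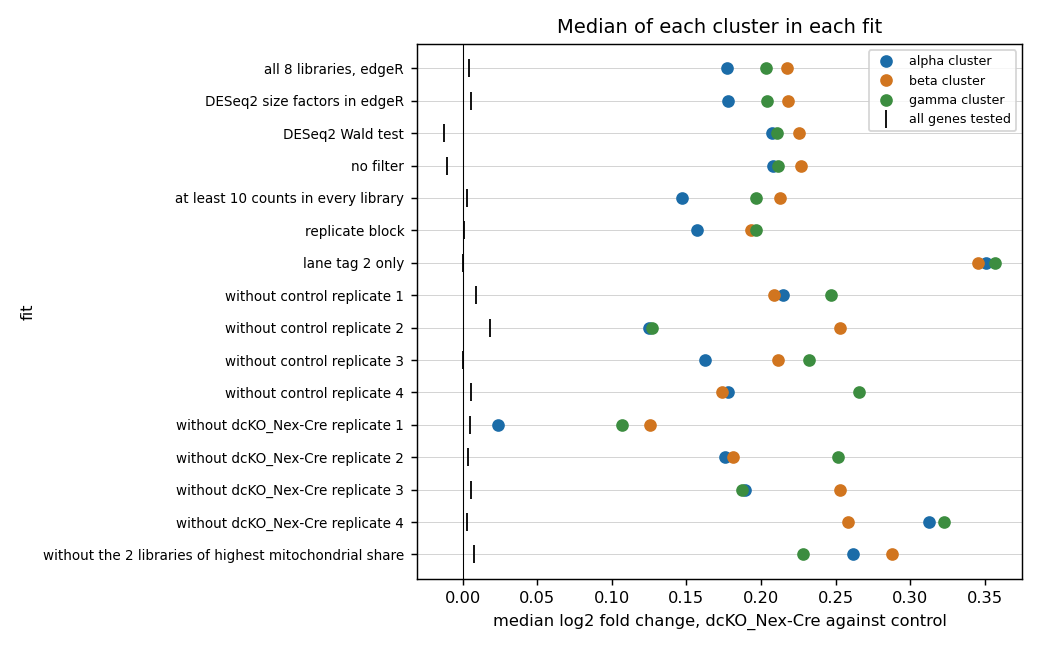
Median log2 fold change between the dcKO_Nex-Cre and control cortex (horizontal axis) of the alpha, beta and gamma genes and of all genes tested in each fit (rows). The cluster medians were above 0 in every fit, from 0.023 for the alpha genes without dcKO_Nex-Cre replicate 1 to 0.36 for the gamma genes within lane tag 2, and the median of all genes stayed near 0.

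Among the alpha genes, which code for isoforms with a shared cytoplasmic end that can bind kinases such as Fyn, no member had an unadjusted p under 0.05. *Pcdha9*, the most abundant of the alternate alpha isoforms, was at 13.3, 6.57, 13.3 and 11.3 CPM in the control and at 14.0, 9.77, 12.05 and 9.82 CPM in the dcKO_Nex-Cre libraries. The groups overlapped, control replicate 2 was the lowest library, and the log2 fold change was 0.037 ± 0.21 (SE, edgeR adjusted p = 0.952). *Pcdha12* was at 8.52, 5.86, 8.51 and 7.05 CPM against 10.1, 7.63, 11.4 and 5.44 CPM, with a log2 fold change of 0.21 ± 0.22 (SE). Its lowest and its highest library were both dcKO_Nex-Cre. *Pcdha8* had the largest log2 fold change of all members, 0.88 ± 0.43 (SE, edgeR adjusted p = 0.390), but rested on 5, 11, 6 and 8 counts in the control and 18, 25, 19 and 5 counts in the dcKO_Nex-Cre libraries. In CPM these were 0.229, 0.602, 0.250 and 0.352 against 0.522, 0.958, 0.784 and 0.281. The groups overlapped, since control replicate 2 lay above dcKO_Nex-Cre replicates 1 and 4. Among the other alternate alpha genes, the log2 fold change ranged from -0.064 (*Pcdha7*) to 0.33 (*Pcdha5*).

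Among the beta genes, single-exon genes that lack the constant part, 21 of 21 tested members had a log2 fold change above 0, and 3 had an unadjusted p under 0.05. *Pcdhb3* (ENSMUSG00000045498, chromosome 18, 37300799 to 37304585) was at 6.37, 5.42, 6.93 and 4.05 CPM in the control and at 9.74, 9.27, 8.01 and 6.79 CPM in the dcKO_Nex-Cre libraries. Only dcKO_Nex-Cre replicate 4 lay within the control range. The log2 fold change was 0.57 ± 0.18 (SE), with an unadjusted p of 0.00873 and an adjusted p of 0.198 by edgeR, and the exact two-sided permutation test of the CPM gave p = 0.0571. *Pcdhb13* was at 4.53, 3.34, 3.21 and 3.04 CPM against 5.22, 4.60, 5.16 and 4.27 CPM. Control replicate 1 was the one control library among the dcKO_Nex-Cre values, and the log2 fold change was 0.45 ± 0.17 (SE, edgeR adjusted p = 0.268). *Pcdhb14* (chromosome 18, 37447656 to 37456350) was at 5.40, 5.86, 6.43 and 6.61 CPM against 7.83, 7.47, 6.81 and 7.91 CPM.

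*Pcdhb14* was the only tested member whose groups did not overlap. This was 1 of 53 members, beside 3.99% of all genes with every dcKO_Nex-Cre library above every control and 4.01% with every one below. Its log2 fold change was 0.30 ± 0.12 (SE, edgeR adjusted p = 0.307), and the exact permutation test gave p = 0.0286, the smallest that 4 libraries against 4 can give. The most abundant beta genes had small log2 fold changes. *Pcdhb7* was at 21.4, 18.9, 22.5 and 18.1 CPM in the control and at 23.04, 26.7, 21.995 and 17.3 CPM in the dcKO_Nex-Cre libraries, with overlapping groups and a log2 fold change of 0.14 ± 0.13 (SE). *Pcdhb17* was at 19.8, 18.3, 18.4 and 18.9 CPM against 24.1, 17.8, 18.3 and 17.6 CPM. Its 3 lower dcKO_Nex-Cre libraries lay below every control, and the log2 fold change of 0.046 ± 0.11 (SE) turned to -0.076 without replicate 1. *Pcdhb20* was at 15.8, 14.0, 15.4 and 14.8 CPM against 17.4, 14.3, 14.2 and 14.6 CPM, the smallest log2 fold change of the cluster at 0.012 ± 0.10 (SE). *Pcdhb19* was at 14.1, 15.5, 15.1 and 13.6 CPM against 19.6, 17.7, 14.6 and 15.04 CPM, with a log2 fold change of 0.20 ± 0.11 (SE), and its dcKO_Nex-Cre replicates 1 and 2 stood above all controls.

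The alternate gamma genes are of an A and a B type, distinguished by their sequence. All 11 tested A-type genes and all 6 B-type genes had a log2 fold change above 0, with medians of 0.29 and 0.18. Summed, the A-type genes of the dcKO_Nex-Cre cortex were at 122% and the B-type genes at 112% of the control. The difference between the types was not tested. *Pcdhga1*, the first gene of the cluster, was at 8.29, 6.46, 9.56 and 7.004 CPM in the control and at 12.8, 9.96, 9.28 and 10.6 CPM in the dcKO_Nex-Cre libraries. Only control replicate 3 and dcKO_Nex-Cre replicate 3 were out of order, and the log2 fold change was 0.44 ± 0.15 (SE, edgeR adjusted p = 0.240). *Pcdhga6* (ENSMUSG00000103793, chromosome 18, 37707039 to 37841873) was at 12.7, 11.7, 15.9 and 14.7 CPM against 21.7, 20.5, 17.5 and 14.8 CPM. Replicate 4 was again the dcKO_Nex-Cre library within the control range, and the log2 fold change was 0.44 ± 0.14 (SE, edgeR adjusted p = 0.201). *Pcdhga3* was at 21.5, 13.5, 20.2 and 22.0 CPM against 27.1, 23.7, 25.4 and 18.02 CPM, with a log2 fold change of 0.29 ± 0.16 (SE). The remaining alternate gamma genes lay between 0.020 (*Pcdhgb2*) and 0.33 (*Pcdhga11*) on the log2 scale.

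No C-type isoform passed the test. Of the 4 tested members below 0, 3 were C-type, namely *Pcdhac1*, *Pcdhac2* and *Pcdhgc5*. *Pcdhac2*, the isoform known for the tiling of serotonergic axons, was at 28.3, 20.3, 21.7 and 25.5 CPM in the control and at 28.3, 22.0, 22.4 and 17.0 CPM in the dcKO_Nex-Cre libraries. The groups overlapped, and the log2 fold change was -0.089 ± 0.15 (SE, edgeR adjusted p = 0.824). *Pcdhac1* was at 3.11, 2.68, 3.25 and 3.17 CPM against 3.74, 3.26, 3.47 and 1.35 CPM. Replicates 1 to 3 of the dcKO_Nex-Cre cortex were above every control and replicate 4 was far below, so the log2 fold change of -0.030 ± 0.26 (SE) became 0.19 without that library.

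*Pcdhgc3*, which acts in dendrite branching of cortical neurons, was at 74.96, 58.8, 81.8 and 62.3 CPM in the control and at 81.5, 83.5, 83.9 and 53.8 CPM in the dcKO_Nex-Cre libraries. Replicates 1 to 3 of the dcKO_Nex-Cre cortex were above control replicates 1, 2 and 4, and replicate 4 was below every control. The wide range of the mutant values thus rested on replicate 4. The log2 fold change was 0.12 ± 0.15 (SE, edgeR adjusted p = 0.735). *Pcdhgc4*, the isoform required for the survival of interneurons, was at 44.6, 36.2, 43.0 and 49.6 CPM against 66.6, 51.7, 48.9 and 40.1 CPM. The log2 fold change was 0.26 ± 0.15 (SE, edgeR adjusted p = 0.449), and dcKO_Nex-Cre replicates 1 and 2 were above every control. *Pcdhgc5*, which interacts with GABA-A receptors and is mainly expressed later in postnatal life, was at 5.72, 4.43, 5.38 and 6.26 CPM against 4.35, 5.98, 4.54 and 3.42 CPM. It had the lowest log2 fold change of all members, -0.25 ± 0.18 (SE, edgeR adjusted p = 0.559), and the groups overlapped through replicate 2 of each.

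Because the libraries differed in the level of a whole cluster, each member was also expressed as its share of the counts of its cluster, a quantity that does not depend on the scaling of the library. The 2 C-type alpha genes together took 34.6%, 35.5%, 31.1% and 34.0% of the alpha counts in the control and 30.1%, 30.4%, 29.5% and 29.3% in the dcKO_Nex-Cre libraries. Every dcKO_Nex-Cre library was below every control, and the means were 33.8% ± 1.91 and 29.8% ± 0.512 (SD, n = 4). Most of these counts were of *Pcdhac2*, which took 31.2%, 31.4%, 27.03% and 30.2% against 26.6%, 26.5%, 25.5% and 27.2% and overlapped by 1 library of each group. Over the 56 members with counts, the shares of 2 (3.57%), *Pcdha5* and *Pcdhb3*, were higher in every dcKO_Nex-Cre library than in every control. Those of 0 (0.0%) were lower in every one. In CPM, 3.99% of all genes tested were higher in this way and 4.01% lower. The 2 of 56 are thus close to the share of all genes, though CPM is not the same measure. The share of a cluster, and the summed C-type share, have no counterpart over all genes. *Pcdha5* took 10.03%, 7.27%, 7.71% and 9.98% of the alpha counts against 10.3%, 10.4%, 10.3% and 11.3%. *Pcdhb3* took 3.57%, 3.18%, 3.90% and 2.51% of the beta counts against 4.30%, 4.71%, 4.30% and 3.95%. The 3 C-type gamma genes took 39.9%, 41.1%, 40.2% and 38.6% of the gamma counts in the control and 37.2%, 40.5%, 38.3% and 37.99% in the dcKO_Nex-Cre libraries, and these groups overlapped. Shares of 1 cluster sum to a fixed total, so a lower share of one member goes with a higher share of others.

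The 29 genes known to act on promoter choice and silencing at the locus, such as CTCF, cohesin and its loaders, DNA methylation enzymes and H3K9 methylation factors, held 0 called genes. Over all genes, 0.375% were called higher and 0.51% lower. At an unadjusted p under 0.05, 5 of 29 (17.2%) were higher and 0 lower, beside 6.59% and 7.05% of all genes. The median log2 fold change was 0.12, and 24 of 29 (82.8%) were above 0, beside a median of 0.0043 and 50.9% over all genes. *Ctcf*, whose protein anchors the promoter loops, was at 159, 147, 167 and 140.2 CPM in the control and at 175, 176, 164 and 151 CPM in the dcKO_Nex-Cre libraries, with a log2 fold change of 0.12 ± 0.082 (SE). The cohesin subunit gene *Rad21* had a log2 fold change of 0.055 ± 0.070 (SE), and its groups overlapped as those of *Ctcf* did. *Stag1*, a further cohesin subunit gene, was at 90.4, 80.9, 92.6 and 82.2 CPM against 107, 105, 106 and 94.6 CPM. The groups did not overlap, and the log2 fold change was 0.25 ± 0.075 (SE, edgeR adjusted p = 0.169). *Smchd1* and *Setdb1*, which repress the locus, had log2 fold changes of 0.14 ± 0.11 (SE) and 0.11 ± 0.072 (SE). *Dnmt3b*, whose enzyme methylates the alternate promoters in the embryo, was at 3.45 to 4.08 CPM in the control and 3.45 to 3.76 CPM in the dcKO_Nex-Cre libraries. *Tet1*, which removes DNA methylation, was at 43.3, 52.0, 42.4 and 41.2 CPM against 64.8, 51.3, 53.4 and 48.6 CPM, with a log2 fold change of 0.29 ± 0.11 (SE, edgeR adjusted p = 0.277).

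The 28 genes of the proteins through which protocadherins are processed and signal, among them focal adhesion kinases and the WAVE complex, also held 0 called genes. Over all genes, 0.375% were called higher and 0.51% lower. At an unadjusted p under 0.05, 1 of 28 (3.57%) was higher and 0 lower, beside 6.59% and 7.05% of all genes. Their median log2 fold change was 0.063, and 19 of 28 (67.9%) were above 0, beside a median of 0.0043 and 50.9% over all genes. *Cdc42*, a small GTPase of the actin cytoskeleton, was at 736, 723, 745 and 773 CPM in the control and at 654, 625, 671 and 752 CPM in the dcKO_Nex-Cre libraries, which overlapped, with a log2 fold change of -0.14 ± 0.080 (SE, edgeR adjusted p = 0.460).

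The 12 nonclustered protocadherins, which lie outside the locus and each have their own gene, were not called either. Their log2 fold changes went both ways, with a median of 0.062 and 7 of 12 above 0 (58.3%, beside 50.9% of all genes). At an unadjusted p under 0.05, 3 of 12 (25%) were higher and 1 (8.33%) lower, beside 6.59% and 7.05% of all genes. *Pcdh20* (chromosome 14, 88464743 to 88471396) was at 28.9, 30.05, 30.001 and 30.8 CPM in the control and at 47.1, 32.3, 47.0 and 55.3 CPM in the dcKO_Nex-Cre libraries. All dcKO_Nex-Cre values were above the control ones, with replicate 2 nearest to them, and the log2 fold change was 0.60 ± 0.14 (SE, edgeR adjusted p = 0.0758). *Pcdh11x* (chromosome X) was at 58.3, 52.6, 38.7 and 60.3 CPM against 40.3, 28.1, 39.8 and 26.1 CPM. Control replicate 3 lay among the dcKO_Nex-Cre values, and the log2 fold change was -0.64 ± 0.17 (SE, edgeR adjusted p = 0.131). Under DESeq2's Wald test both genes passed the threshold.

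Markers of the cell types of the tissue were read beside these values. Of 10 projection neuron markers, 10 interneuron markers and 10 markers of astrocytes and radial glia, 0 were called. At an unadjusted p under 0.05 by edgeR, 1 of the 10 projection neuron markers was higher and 2 were lower. In each of the other lists, 0 of 10 were higher and 1 was lower, beside 6.59% and 7.05% of all genes. The summed levels of the lists were 1240 to 1347, 806 to 949 and 2506 to 3003 CPM in the control and 1190 to 1405, 708 to 860 and 2162 to 2697 CPM in the dcKO_Nex-Cre libraries. The groups overlapped in each list. *Cspg4* of 7 markers of the oligodendrocyte lineage and *C1qb* of 8 microglial markers were called higher, beside 0.375% of all genes. At an unadjusted p under 0.05 by edgeR, 4 of the 7 and 3 of the 8 were higher, and 1 of each was lower. Over all genes, 6.59% were higher and 7.05% lower by this rule. The sums of these lists were 220 to 306 and 105 to 121 CPM in the control against 297 to 372 and 109 to 146 CPM, and both overlapped between the groups. Vessel (236 to 330 against 270 to 317 CPM), meningeal (15.1 to 29.3 against 10.6 to 57.0 CPM) and erythroid markers (82.6 to 138 against 81.8 to 185 CPM) also overlapped between the groups. Choroid plexus markers varied most, from 22.3 to 1336 CPM in the control and from 4.10 to 557 CPM in the dcKO_Nex-Cre libraries. The sums of the oligodendrocyte lineage markers were 306, 220, 296 and 302 CPM in the control and 372, 341, 352 and 297 CPM in the dcKO_Nex-Cre libraries. As with the members' medians, control replicate 2 was the lowest control, and replicates 1 and 4 were the highest and the lowest dcKO_Nex-Cre library. Projection neuron sums were also highest and lowest in dcKO_Nex-Cre replicates 1 and 4 (1405 and 1190 CPM), but their lowest control was replicate 4 (1240 CPM). For the interneuron sums, control replicate 2 was the highest control (949 CPM) and replicate 1 the lowest dcKO_Nex-Cre library (708 CPM). The part of these cell types in the protocadherin values was not tested.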

How the data were processed

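RNA-seq of the P1 cortex was analysed for 4 control and 4 dcKO_Nex-Cre libraries. Libraries were made by the authors with the Illumina TruSeq RNA v2 kit, which does not mark strand, and for each the deposited values are raw counts per Ensembl gene, without normalization. The submitters' processing notes name the mm10 build. The aligner, counter, annotation and strand setting are not given in the sources used here. Identifiers were matched to GENCODE M21 (GRCm38) for 48349 of 48709 genes, and 1 further symbol of the locus, *Pcdhgb8*, was left out as it is not annotated as protein coding. GENCODE gives 2 genes the name *Pcdha11*, and ENSMUSG00000007440 is named *Pcdha10* here, after the nearest RefSeq start.

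The groups were compared in R 4.3.3 with edgeR 4.0.16 (TMM, filterByExpr with the groups, robust quasi-likelihood F test, two-sided, no covariates), with Benjamini-Hochberg adjustment over the 16287 genes tested and a threshold of 0.05. The exact permutation test of the CPM used all 70 regroupings. CPM are counts scaled to the TMM-normalized library size, and a pseudocount of 0.1 CPM was used for the ratios per library. The scripts were tested on simulated data. Tables were made with pandas 2.3.3 and plots with matplotlib 3.10.9, in Python 3.11.15. Alternatives were DESeq2 1.42.0 (size factors in edgeR, and its Wald test), no filter, a minimum of 10 counts in every library, the replicate number as a block, lane tag 2 only, 8 fits that each leave out a library, and a fit without the 2 libraries of highest mitochondrial share, which was added after the data were seen.

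The members and gene lists were chosen with earlier results of these data known. Values per library are given for members with an unadjusted p under 0.05, the 3 with the highest mean CPM in each cluster, the C-type members, and the largest and smallest log2 fold change of each cluster. Of the other lists, genes with an adjusted p under 0.05 or else the 2 with the smallest p are given, and *Ctcf*, *Rad21*, *Smchd1*, *Setdb1* and *Dnmt3b* whatever their value. Some items are withheld and are not reported here. *Pcdha1*, *Pcdha5*, *Pcdhga11* and *Pcdhgb2* were named after their values were seen. No pair of libraries within a group were copies, since every pair differed by more than counting noise (lowest chi-square per degree of freedom 3.81).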

Additional observations from a re-analysis of the deposited data

Results flagged for a closer look

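In 4 of the 74 groups of 4 libraries examined, 1 library lay apart from the other 3 by Dixon's ratio, and 3.7 would be expected by chance at 1 in 20. Replicate 1 of the mutant stood out for *Pcdhb17*, with 24.1 CPM beside 17.6 to 18.3 CPM in replicates 2 to 4. The same library stood out for *Pcdhb20*, with 17.4 CPM beside 14.2 to 14.6 CPM. Replicate 4 of the mutant stood out for *Pcdhgc3*, with 53.8 CPM beside 81.5 to 83.9 CPM in replicates 1 to 3, and for *Stag1*, with 94.6 CPM beside 105 to 107 CPM.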

How the results depend on the processing

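No member was called in 13 of the 15 alternatives, the exceptions being the fits described above, with 2 members without dcKO_Nex-Cre replicate 4 and 3 without the 2 libraries of highest mitochondrial share. When 1 library was left out, 0 to 2 members were called higher, 4 to 21 had an unadjusted p under 0.05 in the higher and 0 to 1 in the lower direction, and the summed alpha cluster was 97.1% to 116% of the control. It was below 100% without control replicate 2 (99.9%) and without dcKO_Nex-Cre replicate 1 (97.1%). The beta and gamma sums, with 1 library left out, stayed above the control at 108% to 118% and 108% to 126%. Members with an unadjusted p under 0.05 in the higher direction numbered 17 within lane tag 2 and 18 without the 2 libraries of highest mitochondrial share, against 5 with all libraries. Over all genes, 61 were called higher and 83 lower, against 209 and 265 by DESeq2's Wald test, 109 and 150 without a filter, and 140 and 108 within lane tag 2. With the replicate block they numbered 21 and 33, and with 1 library left out 9 to 659 and 9 to 619, the highest counts being without dcKO_Nex-Cre replicate 4. Without the 2 libraries of highest mitochondrial share, 896 and 898 were called. The causes were not tested.

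Single genes turned direction in 13 of 464 cases, all with small values. With 1 library left out, the log2 fold change ranged from -0.13 to 0.14 for *Pcdha9*, -0.16 to 0.19 for *Pcdhac1*, -0.22 to 0.024 for *Pcdhac2*, -0.076 to 0.094 for *Pcdhb17* and -0.064 to 0.044 for *Pcdhb20*. Among these, *Pcdha9* was at -0.13 without control replicate 2 and -0.079 without dcKO_Nex-Cre replicate 1, *Pcdhac1* at 0.0018 without control replicate 3, *Pcdhac2* at 0.0065 without control replicate 1, and *Pcdhb20* at -0.011 without control replicate 2. Without the 2 libraries of highest mitochondrial share *Pcdha9* was at -0.074 and *Pcdhac1* at 0.14, and within lane tag 2 *Pcdhac1* was at 0.20 and *Pcdhac2* at 0.076. The call of *Smarcc1* was lost in 8 alternatives, with the log2 fold change between -0.56 and -0.46.

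The deviations of same-numbered libraries correlated at 0.13, 0.018, 0.13 and -0.14. Without values for differently numbered libraries beside them, these do not settle whether the libraries were paired. Members with few counts, such as *Pcdha8*, and the unstated counting in the constant exons limit the precision.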
